A study of Homo sapiens with 4 samples.

Results

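The 10 genes described here make, store, release or take up catecholamines. *TH*, *DDC* and *DBH* are the enzymes of the path, *GCH1* and *CYB561* supply what those enzymes need, *SLC18A1*, *SLC18A2* and *SLC6A2* are transporters, and *CHGA* and *CHGB* are granins. The peaks counted were the H3K27ac peaks of each group that overlapped the gene body annotated by GENCODE or the 10 kb on either side of it, which is called the gene window below. The windows held 62 of the 63699 peaks of control cells (sgCtrl) and 49 of the 50119 peaks of *SNHG1*-depletion cells (sgSNHG1).

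The study asked how losing the long non-coding RNA *SNHG1* bears on the chromatin of neuroblastoma cells, and assayed H3K27ac, the acetylation of histone H3 found at active promoters and enhancers, by ChIP-seq in the neuroblastoma line SK-N-BE(2)C. The 2 sgCtrl samples carried a non-targeting guide RNA and are labelled wildtype, and the 2 sgSNHG1 samples carried guide RNAs against *SNHG1* and are labelled knockout. Cells of both groups were transfected with Cas9, selected with puromycin and grown from single sorted cells, so that a difference between clones and an effect of *SNHG1* loss cannot be told apart. Peaks were called once per group, over its 2 samples combined, so each value below is 1 value per group, with no spread between replicates, and the comparisons carry no p-value.

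Catecholamine synthesis starts when tyrosine hydroxylase (*TH*) turns tyrosine into L-DOPA, which aromatic L-amino acid decarboxylase (*DDC*) turns into dopamine. Vesicular monoamine transporters (*SLC18A1* and *SLC18A2*) load dopamine into dense core vesicles, where dopamine beta-hydroxylase (*DBH*) turns it into noradrenaline, and the transporter *SLC6A2* brings released noradrenaline back into the cell. Neuroblastoma arises from sympathoadrenal precursors, and its catecholamine products and chromogranin A are used as markers of the disease.

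The sequences that follow are those the results turn on. They are the promoters of the 2 genes, among the 5 whose RefSeq promoters were searched, that held the cyclic AMP response element TGACGTCA. The others are the promoter and start-site peak of *DBH*, whose peaks differed most between the lists, and the *TH* peak with the most fragments. Capitals mark every match, on either strand, to a searched motif. Those that occur here are TGACGTCA and GGGCGG, the GC box, and a match is a description of the letters only. Promoters run from 250 bases before to 50 bases after the RefSeq start (GRCh38.p14), and peak sequences are GRCh38, written along the gene's own strand.
CHGA promoter, chr14:92922900-92923199, plus strand: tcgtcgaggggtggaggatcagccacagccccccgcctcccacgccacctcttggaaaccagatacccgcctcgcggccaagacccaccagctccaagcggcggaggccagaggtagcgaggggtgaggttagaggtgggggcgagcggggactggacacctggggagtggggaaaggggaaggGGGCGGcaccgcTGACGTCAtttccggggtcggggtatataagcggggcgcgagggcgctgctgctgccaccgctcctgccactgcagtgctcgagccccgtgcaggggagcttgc
SLC18A2 promoter, chr10:117240864-117241163, plus strand: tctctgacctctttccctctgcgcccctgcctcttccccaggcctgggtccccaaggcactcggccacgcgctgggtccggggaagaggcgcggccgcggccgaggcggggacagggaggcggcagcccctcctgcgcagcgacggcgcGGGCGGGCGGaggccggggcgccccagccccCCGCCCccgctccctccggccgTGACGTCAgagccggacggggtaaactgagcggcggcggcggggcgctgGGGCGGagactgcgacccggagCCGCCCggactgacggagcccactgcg
DBH promoter, chr9:133636113-133636412, plus strand: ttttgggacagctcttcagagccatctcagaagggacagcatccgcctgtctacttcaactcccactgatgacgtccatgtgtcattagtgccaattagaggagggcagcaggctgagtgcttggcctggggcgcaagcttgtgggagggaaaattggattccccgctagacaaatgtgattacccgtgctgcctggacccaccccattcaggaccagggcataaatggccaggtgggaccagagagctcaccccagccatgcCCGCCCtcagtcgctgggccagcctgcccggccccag
DBH peak found in sgSNHG1, chr9:133636438-133636665, plus strand: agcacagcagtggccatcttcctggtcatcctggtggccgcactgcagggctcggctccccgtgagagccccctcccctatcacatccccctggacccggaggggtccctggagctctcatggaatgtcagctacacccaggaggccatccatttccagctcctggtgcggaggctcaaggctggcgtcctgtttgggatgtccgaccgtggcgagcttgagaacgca
TH peak, 300 bases around its sgCtrl summit, chr11:2166435-2166734, minus strand: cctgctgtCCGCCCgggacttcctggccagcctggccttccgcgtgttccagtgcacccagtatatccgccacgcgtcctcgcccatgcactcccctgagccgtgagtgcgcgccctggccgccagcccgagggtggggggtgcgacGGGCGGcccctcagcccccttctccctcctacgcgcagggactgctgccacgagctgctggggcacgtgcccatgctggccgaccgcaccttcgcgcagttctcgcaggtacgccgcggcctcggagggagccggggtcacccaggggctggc

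The cyclic AMP response element began at -54 in *CHGA* and at -48 in *SLC18A2*, counted from the start as +1, and 1.85% of 35116 RefSeq promoters held it. GC boxes were commoner, at 45.0% of promoters, and *SLC18A2* had 5 of them, against 1 each in *CHGA* and *DBH*. *DDC* and *CYB561* were the other members in the promoter table, with 2 and 4 windows, and none of these held the response element. The promoters of *TH*, *GCH1*, *SLC18A1*, *SLC6A2* and *CHGB* were not in it and were not searched. Of the remaining motifs searched, the AP-1 site (TGANTCA), the E-boxes (CATCTG as one form, CAGCTG as another), the GATA site (AGATAA) and the homeodomain core (TAATTA) matched in none of the 9 promoter windows of the 5 matched genes. In that order, 7.71, 14.7, 17.9, 10.3 and 4.84% of all RefSeq promoters held them. The 9 windows, 4 of them of *CYB561*, are too few to tell an absence from these shares. The *SLC18A2* promoter lay wholly under an H3K27ac peak in both lists. The *CHGA* window ended 3 bases before its peak in both lists, and the *DBH* window ended 25 bases before the sgSNHG1 peak printed above.

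Both lists held peaks at all 10 genes, where 15051 of all 20007 coding genes had peaks in both. The 10 windows held 62 in sgCtrl and 49 in sgSNHG1, a ratio of 0.790. The whole lists had nearly the same ratio, 0.787, as had the windows of all protein-coding genes, 0.792. The bases covered in the 10 windows went from 30917 to 26966, a ratio of 0.872 against 0.768 for the whole lists, and the mean fold enrichment from 3.61 to 3.79. Fold enrichment is the height of a peak's summit over the local background that the peak caller estimated around it. Of the sgCtrl peaks, 24 of 62 had no overlapping sgSNHG1 peak, 38.7% (95% Wilson interval 27.6 to 51.2%), where 36.9% of the sgCtrl peaks in all coding-gene windows had none. Of the sgSNHG1 peaks, 12 of 49 had no sgCtrl partner, 24.5% (14.6 to 38.1%), where the share in all coding-gene windows was 19.3%. These intervals cover counting error only, and in both directions they include the share of all windows.

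**Figure D1:**
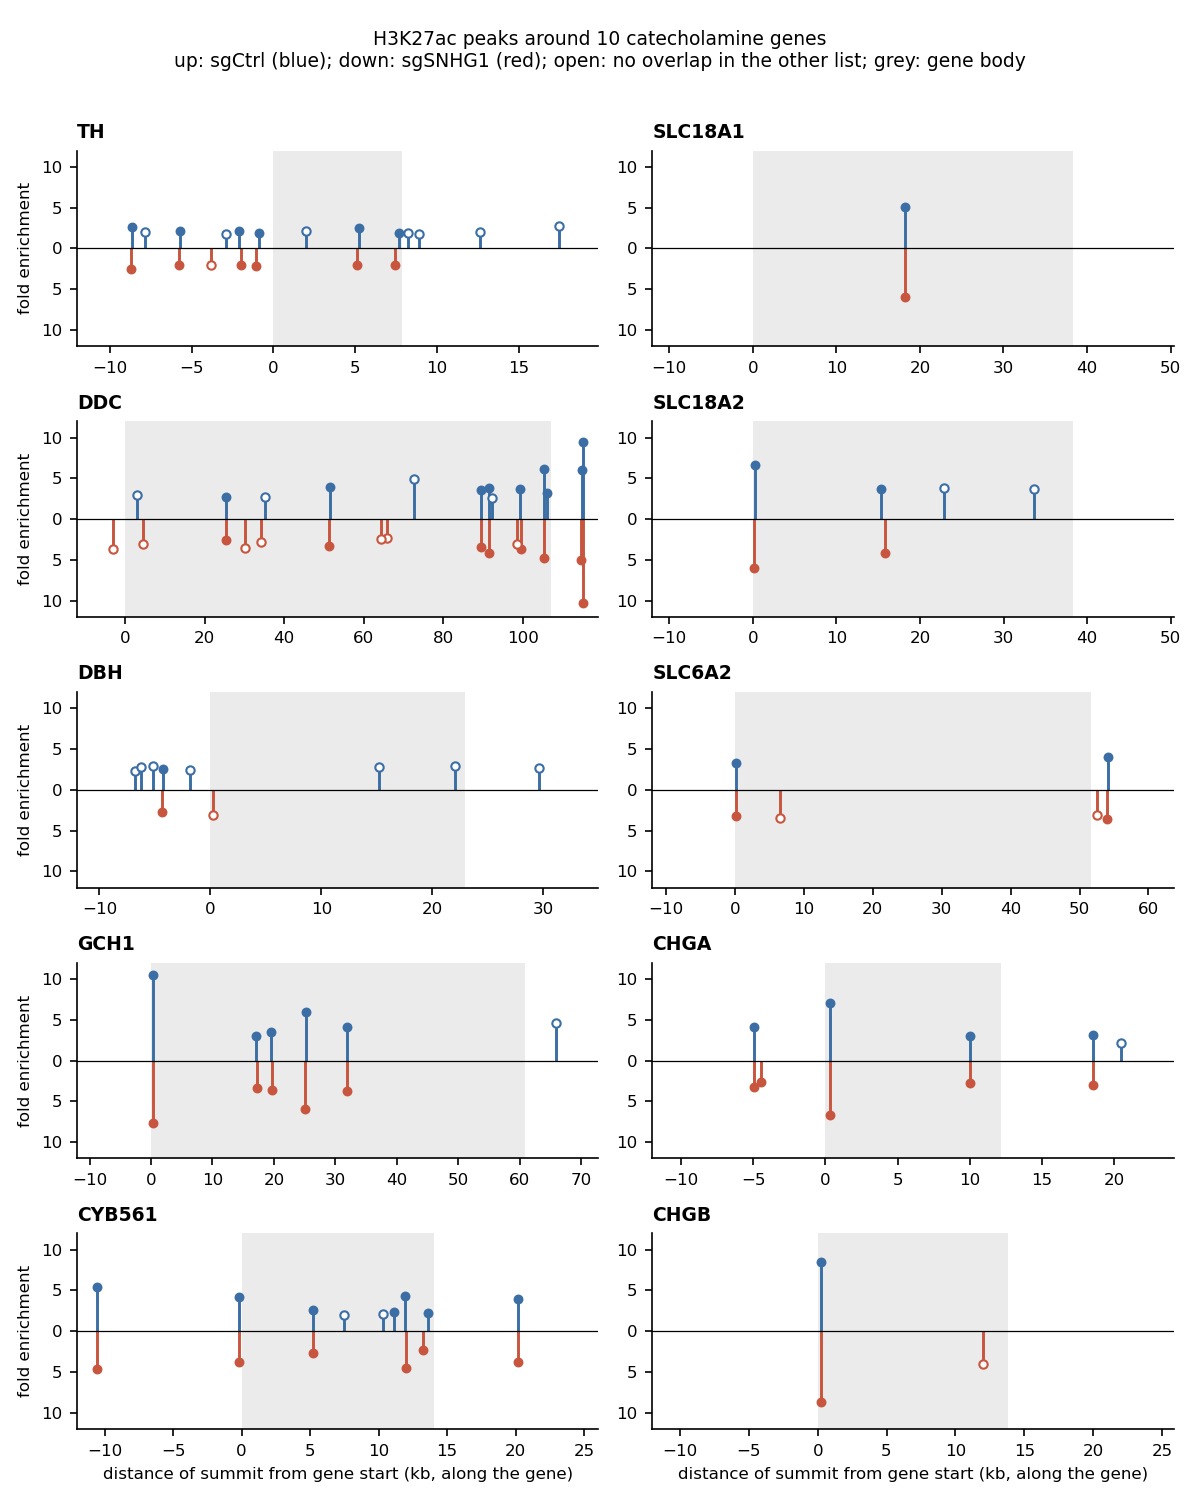
Each panel plots the peaks of 1 gene by the distance of their summits from the gene's start (kb, along the gene) and their fold enrichment, with sgCtrl upwards, sgSNHG1 downwards, open circles for peaks with no overlap in the other list and the gene body in grey. The open circles crowd at *TH* and *DBH*, where 14 of the 24 unmatched sgCtrl peaks lie, while *GCH1*, *CYB561* and *CHGA* are nearly mirrored.

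The differences were uneven across the genes. *TH* went from 13 to 7 peaks and *DBH* from 8 to 2, while *DDC* went from 13 to 15 and *SLC6A2* from 2 to 4. *CYB561* had 9 and 6 peaks, *GCH1* 6 and 5, *SLC18A2* 4 and 2, *CHGA* 5 and 5, *CHGB* 1 and 2, and *SLC18A1* 1 and 1. Thus 5 of the 10 genes had fewer peaks in sgSNHG1, where 45.4% of the 16339 coding genes with a peak did, and 3 had more, against 18.5%. Without *TH* and *DBH* the other 8 windows held 41 and 40 peaks, a ratio of 0.976. With both lists cut to equal size by −log10 p, the 10 windows held 49 peaks in each.

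The highest peak of each gene differed little. None of the 10 genes was lower in sgSNHG1 past 1.5-fold in highest fold enrichment, where 1.59% of 15051 coding genes with a peak in both lists were, and none was higher past it, where 1.97% were. In 6 genes it was lower and in 4 higher, with a median log2 ratio of -0.08 over the members and 0.02 over all coding genes. The intervals of all 10 ratios, from the recovered fragments, included 0. Fragments were recovered because fold enrichment and p together fix the whole number of fragments at the summit and the local background. Dividing these by the genome-wide background of each list, 4.893 fragments in sgCtrl and 4.658 in sgSNHG1, gave scaled fragments and scaled local background. This puts the lists on a common scale, but does not correct for a difference in pull-down or in base composition.

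**Figure D2:**
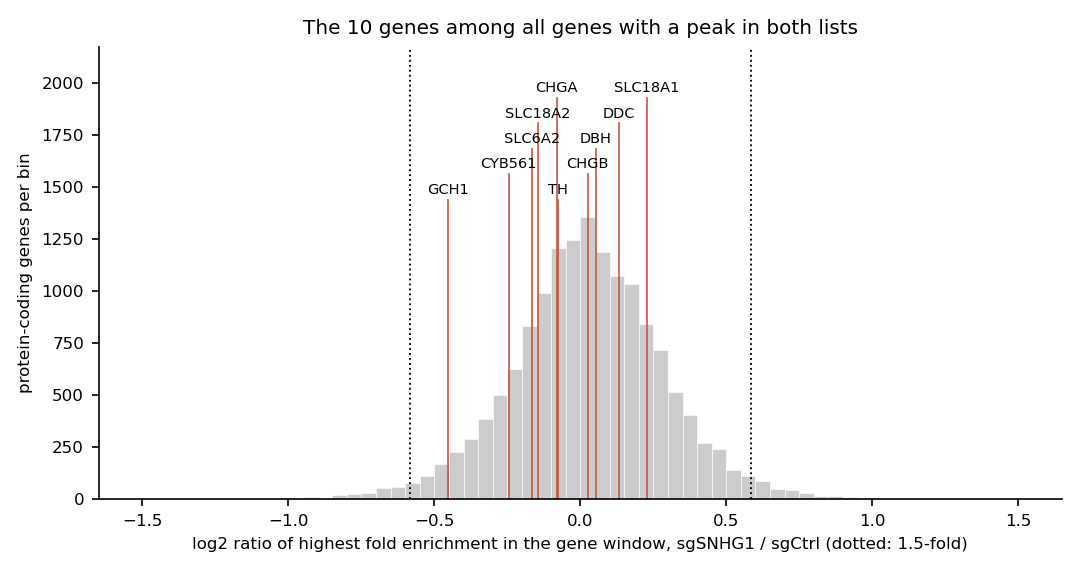
The grey bars count protein-coding genes by the log2 ratio of their highest fold enrichment (sgSNHG1 over sgCtrl), red lines mark the 10 genes and dotted lines the 1.5-fold limits. All 10 lie between the limits, from *GCH1* at -0.45 to *SLC18A1* at 0.23.

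By scaled fragments, 36 peaks of these genes paired one to one between the lists. In sgSNHG1, 25 were lower and 11 higher, with a median log2 ratio of -0.13, which was also -0.13 over all 38601 such pairs. Past 1.5-fold, 2 of the 36 were lower, against 11.2% of all pairs, and 2 were higher, against 5.04%. The counting interval lay wholly below 0 for 8 pairs, which were at *TH*, *CYB561* and *SLC18A2*, where it did for 15.8% of all pairs. It lay wholly above 0 for 3, at *SLC18A1*, *CHGB* and *CHGA*, where it did for 8.80%. Base composition moves with this measure. Over all pairs the median was 0.07 in the lowest of 10 bins of GC content (22.4 to 52.8%) and -0.25 in the bin from 66.0 to 68.0%, and it was back at -0.06 in the highest bin (74.4 to 85.8%). With the median of the same bin subtracted, 18 of the 36 pairs were below 0, and 7 turned direction, which were the only *DBH* pair, both *SLC6A2* pairs, 2 at *DDC* and 1 each at *TH* and *CYB561*.

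**Figure D3:**
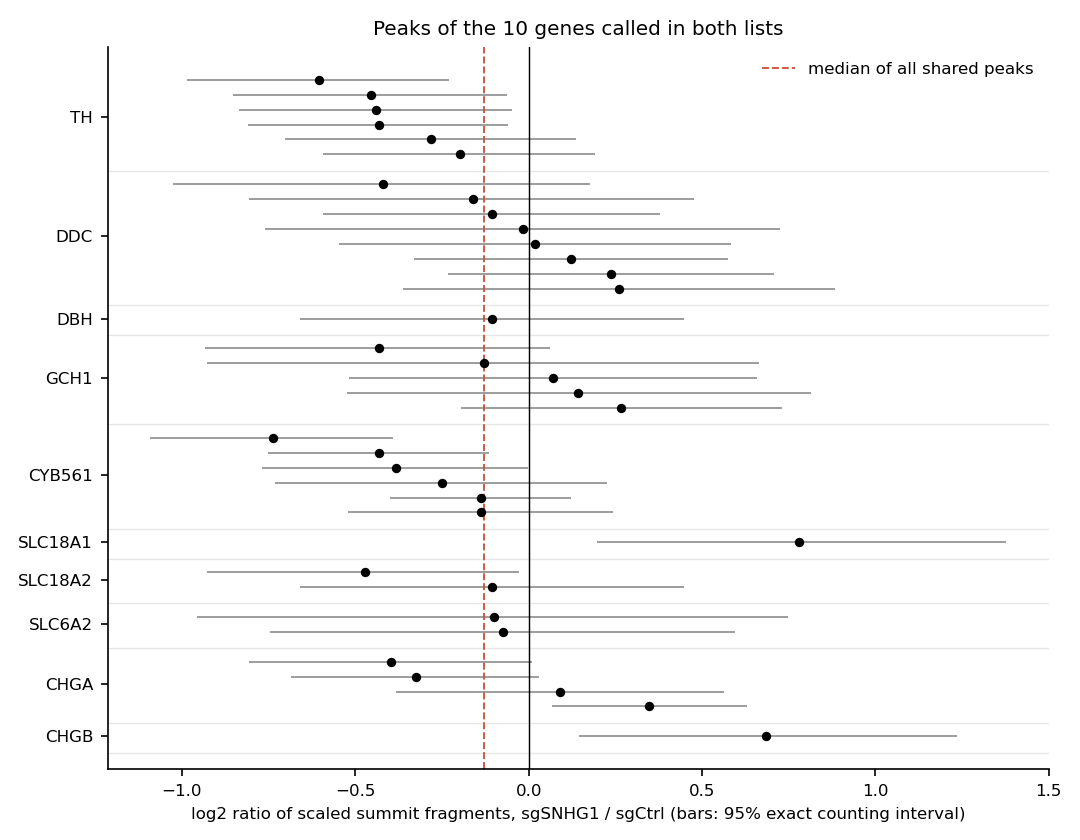
Points are the 36 one-to-one peak pairs of the 10 genes, by the log2 ratio of summit fragments scaled to each list's genome-wide background (sgSNHG1 over sgCtrl), and bars are 95% exact counting intervals. All *TH* and *CYB561* points lie left of 0, the *SLC18A1* and *CHGB* points and 1 *CHGA* point lie right of 0 with their whole bars, and the dashed line is the median of all shared peaks.

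*TH*, which encodes the rate-limiting enzyme of the pathway (chr11:2163929-2171815, minus strand), had low peaks over a dense local background. Its highest fold enrichment was 2.69 in sgCtrl and 2.55 in sgSNHG1, at percentiles 0.44 and 0.25 of coding genes with a peak. These are different peaks, the sgCtrl one 17454 bases past the start and nearest to a start of *IGF2*, the sgSNHG1 one 8711 bases upstream. The local background around its peaks was instead among the highest. It ran from 6.56 to 13.5 times the genome-wide background in sgCtrl and from 8.54 to 9.85 times in sgSNHG1. The highest values were at percentiles 97.8 and 96.1 of coding genes. The median at sgCtrl peaks within 5 Mb was 5.24. A dense local background lowers fold enrichment by its construction. The copies of a region in these cells and the acetylation of each copy cannot be told apart, nor can the number of cells with the mark and the mark per cell.

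All 6 paired *TH* peaks were lower in sgSNHG1 in scaled fragments, by log2 ratios from -0.61 to -0.20 with a median of -0.44. The local background around them was lower too, from -0.45 to -0.36. The tallest of them by fragments, the intron peak at chr11:2166345-2166889 whose centre is printed above, had 155 fragments in sgCtrl and 97 in sgSNHG1, a log2 ratio of -0.61 (-0.99 to -0.23). The start-site peak (chr11:2172586-2172939, summit 878 bases before the start) had 123 and 102 fragments, -0.20 (-0.59 to 0.19). Its fold enrichment went the other way, 1.89 in sgCtrl and 2.20 in sgSNHG1, a log2 ratio of 0.22 (-0.18 to 0.61). Over the 6 pairs the median log2 ratio of fold enrichment was -0.02. The 323 pairs within 5 Mb outside the window had a median of -0.30, and their local background one of -0.30, so the region around *TH* was lower as well. Against pairs of the same GC content the 6 *TH* pairs ran from -0.55 to 0.04 with a median of -0.19, the paired peaks being 65.0 to 75.2% GC.

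The 7 *TH* peaks of sgCtrl without a partner were weak, with −log10 p from 7.96 to 15.9. Those of *DBH*, also 7, ran from 7.43 to 14.6. The range from 7.43 to 15.9 was set by these unpaired peaks themselves, so it holds all of them. Of the 33662 sgCtrl peaks in it, 60.3% had no sgSNHG1 peak. In that range *TH* had 11 peaks, 7 of them without a partner, and *DBH* 8, 7 of them without. The window of *TH* also holds *INS* and part of *IGF2*. The unpaired *TH* peaks farthest downstream, with summits 12646 and 17454 bases past the start, were nearest to a start of *IGF2*. Those with summits 8250 and 8892 bases past the start were nearest to a start of *INS*.

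*DDC*, the decarboxylase (chr7:50458436-50565405, minus strand), had many peaks in both lists and no peak within 1 kb of its annotated first base. Its highest fold enrichment, 9.45 in sgCtrl and 10.4 in sgSNHG1, belonged to a peak 115192 bases past its start (chr7:50449923-50450333), which lies at the start of the neighbouring gene *FIGNL1*. Within the gene body the highest value was 6.19 in sgCtrl at chr7:50459638-50460566, near the 3′ end of *DDC*, and 4.83 for its sgSNHG1 partner, with 59 and 42 fragments and a log2 ratio of scaled fragments of -0.42 (-1.03 to 0.18). The 8 paired *DDC* peaks were split evenly, 4 lower and 4 higher, with a median of 0.00. Of the sgCtrl peaks 4 had no partner and of the sgSNHG1 peaks 7, and 1 of the latter, an intron peak at chr7:50535224-50535571, had 88 fragments and a −log10 p of 23.6. It was the *DDC* peak with the most fragments in either list. Another sgSNHG1 peak without a partner (chr7:50560612-50560946, 51 fragments) lay 75 bases from a RefSeq promoter window inside the gene. The nearest sgCtrl peak lay 815 bases from that window.

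*DBH*, which encodes the enzyme that makes noradrenaline (chr9:133636363-133659329, plus strand), differed most in the position of its peaks. In sgCtrl 5 of its 8 peaks lay upstream of the gene, between 1858 and 6828 bases before the start, and none lay at the start itself. In sgSNHG1 the start carried a peak of fold enrichment 3.07 and 60 fragments, the one printed above, with its summit 219 bases after the start in an exon. A start-site peak in sgSNHG1 and none in sgCtrl was found at 3.81% of the 20007 coding genes. The other sgSNHG1 peak, 4392 bases upstream, paired with a sgCtrl peak of fold enrichment 2.52, at 2.78, with 61 and 54 fragments and a scaled log2 ratio of -0.10 (-0.66 to 0.45), or 0.12 against pairs of the same GC content. The highest fold enrichment was 2.96 in sgCtrl and 3.07 in sgSNHG1, percentiles 1.54 and 2.08 of coding genes. In the 5 Mb around *DBH* the number of peaks was lower as well, with a ratio of 0.707, and the 701 pairs there had a median of -0.31.

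*GCH1* encodes the first enzyme of *tetrahydrobiopterin* synthesis, the cofactor of *TH* (chr14:54842008-54902826, minus strand). It had the highest fold enrichment of the 10 genes in sgCtrl, 10.5 at its start-site peak (chr14:54901914-54902792, exon), against 7.65 in sgSNHG1. This was also the largest difference of highest fold enrichment among the members, with a log2 ratio of -0.45 (-0.96 to 0.03), from 85 and 60 fragments. In scaled fragments the start-site peak was at -0.43 (-0.93 to 0.06). The 4 paired intron peaks lay between -0.13 and 0.27 in scaled fragments. One of them, 25253 bases into the gene, had 76 and 87 fragments and was the peak with the most fragments in sgSNHG1.

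*CYB561*, the cytochrome that carries electrons into vesicles for *DBH* (chr17:63432304-63446354, minus strand), shared with *TH* a dense local background. It ran from 4.23 to 13.0 times the genome-wide one in sgCtrl and from 3.66 to 10.8 times in sgSNHG1. The highest values were at percentiles 97.5 and 97.2 of coding genes. The median at sgCtrl peaks within 5 Mb was 2.55. All 6 of its paired peaks were lower in sgSNHG1, from -0.74 to -0.14 with a median of -0.32. Against pairs of the same GC content they ran from -0.68 to 0.08, with a median of -0.25. The peak 10543 bases upstream (chr17:63456055-63457197) had 191 fragments in sgCtrl and 109 in sgSNHG1, -0.74 (-1.09 to -0.39), which was the lowest ratio of the 36. The start-site peak had 201 and 142 fragments, -0.43 (-0.75 to -0.11). The tallest peak by fragments (chr17:63433596-63434725, exon) had 266 and 230, -0.14 (-0.40 to 0.12), and its sgSNHG1 partner also covered a neighbouring sgCtrl peak. The 275 pairs within 5 Mb had a median of -0.19.

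**Figure D4:**
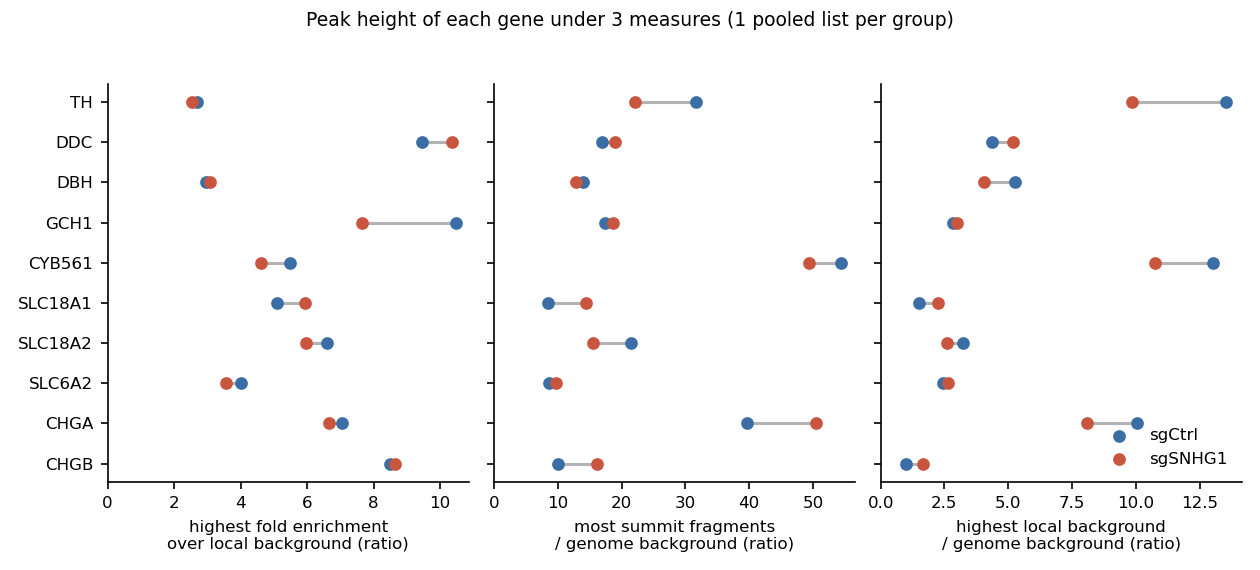
For each gene the panels plot, as ratios, the highest fold enrichment over local background, the most summit fragments over the genome-wide background and the highest local background over the genome-wide background, in sgCtrl (blue) and sgSNHG1 (red). *TH* is lowest in the left panel at 2.69 and 2.55 and, with 13.5, highest in the right panel in sgCtrl.

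The vesicular transporters differed from each other. *SLC18A2* (chr10:117241093-117279430, plus strand), the transporter of monoamine neurons, had a start-site peak in both lists that covered the promoter printed above, with 105 and 72 fragments, a fold enrichment of 6.59 and 5.96 and a scaled log2 ratio of -0.47 (-0.93 to -0.03), or -0.41 against pairs of the same GC content. Its second paired peak, in an intron 15299 bases from the start, had 61 and 54 fragments, and 2 further intron peaks of sgCtrl had no partner. *SLC18A1*, the transporter typical of endocrine cells, had no start-site peak in either list. Its only peak, with its sgCtrl summit 18268 bases into the gene, had 41 fragments in sgCtrl and 67 in sgSNHG1, a scaled log2 ratio of 0.78 (0.20 to 1.38), the highest of the 36, and 0.80 against pairs of the same GC content, while its fold enrichment was 5.08 and 5.95. The local background of that peak was higher as well, 1.48 and 2.24 times the genome-wide one.

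*SLC6A2*, the noradrenaline transporter of the plasma membrane (chr16:55655988-55707645, plus strand), had a start-site peak with 42 and 38 fragments and one 54068 bases past the start with 27 and 24. Their scaled log2 ratios were -0.07 (-0.75 to 0.59) and -0.10 (-0.96 to 0.75), or 0.03 and 0.085 against pairs of the same GC content. The 2 further sgSNHG1 peaks, at 6581 and 52501 bases past the start, had 45 and 21 fragments. Even a 1.5-fold difference lies within these intervals.

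*CHGA* encodes chromogranin A, the main soluble protein of the vesicles (chr14:92923150-92935285, plus strand). Its start-site peak (chr14:92923203-92924244) had 194 fragments in sgCtrl and 235 in sgSNHG1, a scaled log2 ratio of 0.35 (0.07 to 0.63), or 0.41 against pairs of the same GC content. Its fold enrichment was 7.05 and 6.67, since the local background was 5.45 and 7.38 times the genome-wide one. The direction at this peak therefore depended on which background it was measured against. The peaks 10046 and 18517 bases past the start went the other way, with 123 and 89 fragments, -0.40 (-0.81 to 0.01), and 154 and 117, -0.33 (-0.68 to 0.03). The highest local background in the window, 10.1 and 8.08 times the genome-wide one, was at percentiles 93.7 and 92.8 of coding genes.

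*CHGB*, which encodes the related chromogranin B (chr20:5911510-5925353, plus strand), had 1 peak in sgCtrl, at the start, with 49 fragments against 75 in sgSNHG1. The scaled log2 ratio was 0.69 (0.15 to 1.24), and 0.93 against pairs of the same GC content, while the fold enrichment was 8.48 and 8.64. The local background at this peak in sgCtrl was the genome-wide one itself and in sgSNHG1 it was 1.67 times that. A second sgSNHG1 peak, 11968 bases past the start in an exon, had 30 fragments.

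Start-site peaks, within 1 kb of the annotated first base, were found at 7 of the 10 genes in sgCtrl and 8 in sgSNHG1, where 58.2% and 57.9% of coding genes had one. The same 7 genes had one in both lists, namely *TH*, *GCH1*, *CYB561*, *SLC18A2*, *SLC6A2*, *CHGA* and *CHGB*. In sgCtrl 23 of the 62 peaks were in introns, 13 in exons, 14 upstream and 12 downstream of the gene, and in sgSNHG1 these numbers were 22, 10, 11 and 6. In the 300 bases around the summits TGACGTCA was found at none of the peaks of either list in these windows, where 0.192% and 0.190% of all peaks held it. GC boxes were found at 24 of 62 and 15 of 49, 38.7 and 30.6%, against 37.5 and 40.3% of all peaks.

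Beside the members 48 other genes were listed, 8 of them under other transmitters, such as choline, serotonin and histamine genes. Of the 48, 37 had a peak in both lists, where 15051 of all 20007 coding genes had. Their median log2 ratio of highest fold enrichment was 0.04 for the 37. Past 1.5-fold 2 were lower in sgSNHG1 and none higher, where 1.59% and 1.97% of all coding genes were. They were *CPE*, a carboxypeptidase that trims prohormones, at 12.7 and 7.07, and *SLC5A7*, the choline transporter, at 7.30 and 4.06. Both had a log2 ratio of -0.84, and *SLC5A7* was listed under other transmitters. All 6 genes that make, recycle or regulate *tetrahydrobiopterin* had a start-site peak in both lists. Among them *PTS* was at 9.55 and 11.9 and *QDPR* at 9.69 and 11.1. *PNMT*, which makes adrenaline from noradrenaline, had 6 peaks in sgCtrl and 2 in sgSNHG1, with highest values of 2.56 and 2.51. *MAOA*, which breaks down catecholamines, had its only peak in sgSNHG1, at 4.95, while the granin *SCG2* and the histamine enzyme *HDC* had theirs in sgCtrl, at 3.82 and 4.14. No peak was called in either list at 7 genes, among them *PCSK1*, *PCSK2* and *MAOB*. Summed over the windows of these 48 genes there were 306 and 220 peaks, a ratio of 0.719, of which *PTPRN2* alone held 153 and 97. A peak in overlapping windows was counted for each gene.

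As a check of the label, all 10 *adrenergic neuroblastoma* markers had peaks in both lists and 9 had one at the start. Of all 20007 coding genes, 15051 had a peak in both lists. A start-site peak was found at 58.2% of them in sgCtrl and 57.9% in sgSNHG1. Of 7 mesenchymal markers 5 had peaks in both lists, 4 of them at the start, and *PRRX1* and *FN1* had none. Peaks were also found in both lists at all 4 blood markers, 1 of them at the start, and at 3 of 4 Schwann cell markers, 1 of them at the start, so a peak in a gene window alone does not tell these cell types apart. No *adrenal cortex* gene of 5 had a start-site peak in either list, although 4 had a peak in the window in sgCtrl and 3 in sgSNHG1. Of the 3 epithelial markers 2, *CDH1* and *EPCAM*, had a start-site peak in both lists. A start-site peak alone therefore does not tell cell types apart either. *CDH1* was at 5.03 and 8.72, *EPCAM* at 6.60 and 5.46, and *KRT8* at 2.97 in sgCtrl with no sgSNHG1 peak. Of the 27 markers with a peak in both lists, *CDH1* alone was past 1.5-fold. Over all coding genes 1.97% were higher past it. The part of other cell types in the values above was not tested.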

How the data were processed

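The data are H3K27ac ChIP-seq peaks of 2 sgCtrl and 2 sgSNHG1 samples. The submitters' notes name cutadapt and BWA, with GRCh38. The authors combined the replicates of each group and called peaks with MACS2 at a p-value of 1e-06. Each deposited peak has a fold enrichment (a ratio to local background), the −log10 of the p-value and of the q-value, a score and the offset of the summit. The deposited score and q-value entered no result. Depth per sample is unknown, and an input library is not named in the sources used here.

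Summit fragments and local background were recovered by assuming that the fold enrichment had a pseudocount of 1 and p came from a Poisson distribution. A whole number was obtained within 0.001 for 99.7% of sgCtrl peaks and 99.6% of sgSNHG1 peaks, and for all peaks reported. The commonest, lowest background was taken as genome-wide. Peaks were shared when they overlapped by 1 bp (bedtools 2.31.1 gave the same number), and paired one to one when each was the other's longest overlap. Genes came from GENCODE release 44 and promoters from a set of RefSeq promoters in which 5 of the 10 genes had an entry. GC content is that of the 500 bases centred on each summit. A fold of 1.5 marked a difference. Intervals (95%, Wilson for shares, exact conditional for fragment ratios) cover counting error only, and fragments are not known to be independent molecules. Tables and intervals were made with pandas 2.3.3, scipy 1.17.1 and numpy 2.4.6 under Python 3.11.15, and figures with matplotlib 3.10.9. The computations were tested on simulated data.

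The genes, lists, motifs and alternatives were chosen with earlier results of these data known. The genes named are the 10 members, and of the pathway lists those with a peak in 1 list only or past 1.5-fold. A gene under this rule is left out and not reported here. *PTS*, *QDPR*, *PNMT*, *PTPRN2*, *CHAT* and *SLC18A3* were named after their values were seen, as were the alternatives without *TH* and *DBH*, without each window, by GC content and within 5 Mb. From the pathway lists, *MAOB*, *PCSK1*, *PCSK2*, *SLC6A3*, *SLC6A4*, *TPH1* and *TPH2* are also named outside the rule.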

Additional observations from a re-analysis of the deposited data

How the results depend on the processing

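The depth of the pooled lists limits these results, since even a *GCH1* peak with 51 fragments in each list has an interval from -0.52 to 0.66, and a weak peak missing from a list may lie just under its threshold. Of 79 recomputed values 62 stayed within the limits set for them, 4 moved further and 13 turned direction. The ratio of peak numbers was 0.750 at a −log10 p of at least 10, 1 with lists of equal size, 0.892 in gene bodies and 0.867 with 50 kb flanks, and 0.694 to 0.870 without each window in turn. The share of sgCtrl peaks with a partner, 61.3%, became 72.6% when peaks within 1 kb counted and 75.6% without *TH* and *DBH*. The median log2 ratio turned to 0.13 with scaled fragments, where it was 0.095 over all coding genes. So did *GCH1* (0.10), *SLC6A2* (0.17), *CHGA* (0.35) and *DBH* (-0.11). With gene bodies only, *DDC* was at -0.36, *CYB561* at 0.065 and *SLC6A2* at 0.052. Within 3 kb of the start sites *DDC* was at -0.36 and *CYB561* at 0.065, and *SLC18A1* gave no value. With 50 kb flanks *DBH* was at -0.093 and *SLC18A1* at -0.26, and without peaks nearer to another gene's start *DDC* was at -0.36. The window settings choose another peak. With scaled fragments, the peaks compared at *GCH1*, *SLC6A2* and *DBH* lay at different places in the lists. At *CHGA* the peak was the same and the background differed. The *GCH1* start-site peak alone was at -0.43 in scaled fragments, the same direction as its fold enrichment. No paired analysis was possible because the lists pool both replicates of a group, and leaving out a replicate was not run for the same reason.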

Other observations

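Genes of the neighbouring cholinergic pathway were also looked at. *SLC5A7*, which takes up choline, had 1 peak in each list, with a fold enrichment of 7.30 in sgCtrl and 4.06 in sgSNHG1. *CHAT*, the enzyme that makes acetylcholine, went from 7 to 4 peaks, with highest values of 5.16 and 3.46 and a log2 ratio of -0.58, just inside the 1.5-fold limit. *SLC18A3*, the vesicular acetylcholine transporter, which lies within the *CHAT* locus, had 3 peaks in each list, at 2.99 and 3.27. Its window overlaps that of *CHAT*, so peaks there can be counted for both genes. The dopamine transporter *SLC6A3* had 3 peaks in each list, at 4.96 and 4.67. Among the serotonin genes no peak was called at *SLC6A4* and *TPH2*, while *TPH1* had 1 in each list, at 8.31 and 6.95. No test was possible for any of these, with 1 pooled list per group.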
